A study of Homo sapiens with 5 samples.

Results

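The 10 cardiac calcium-handling genes followed here encode proteins of calcium release from the sarcoplasmic reticulum (RYR2, CASQ2, TRDN, HRC and ASPH), of its uptake (ATP2A2 and PLN), of calcium flux across the sarcolemma (CACNA1C and SLC8A1) and a calcium sensor (S100A1). They were chosen by gene symbol, and every probe that the platform annotation assigns to one of those symbols was taken, 18 probes in all. The platform annotation names 20041 genes. The cells came from H1, a human embryonic stem cell line in wide use, and all groups shared mesoderm induction with CHIR99021, an inhibitor of GSK3, on plates coated with matrigel. From day 2 to day 5 the groups received IWP2 (which blocks WNT secretion), LY294002 (an inhibitor of phosphoinositide 3-kinase), insulin, or IWP2 together with LY294002, and the control group stayed in basal differentiation medium. RNA was taken on day 10 and hybridised to 1 Illumina expression array per group, 5 arrays in all. With 1 array per group there was no spread between replicates, so no difference was tested, no error can be attached to a value, and neighbouring levels in any order given below could not be shown to differ.

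In a heart muscle cell each beat starts with calcium entry through the L-type channel, which opens the ryanodine receptor and releases the calcium held in the sarcoplasmic reticulum. Calsequestrin and the histidine-rich calcium-binding protein hold calcium inside that store, and triadin and junctin tie them to the release channel. The pump SERCA2 takes calcium back up under the restraint of phospholamban, and the sodium-calcium exchanger removes the rest from the cell. Several of these genes serve other tissues too: SERCA2 is made in nearly all cells, the L-type channel also works in smooth muscle and neurons, and aspartyl hydroxylase is widely made.

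The regions before the RefSeq start sites are shown for PLN, HRC, RYR2 and SLC8A1, because these 4 genes stood furthest above the control on the inhibitor arrays. Each is the 250 bases before the start on GRCh38.p14, written 5′ to 3′. PLN is at chr6:118548046-118548295 on the plus strand, HRC at chr19:49155397-49155646 on the minus strand, RYR2 at chr1:237041934-237042183 on the plus strand and the first of the 3 listed SLC8A1 starts at chr2:40512436-40512685 on the minus strand. Capitals mark matches, on either strand, to the GATA factor letters (AGATAA or TGATAA, with AGATAG or TGATAG as variants) and to the NKX2-5 letters TNAAGTG.

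PLN: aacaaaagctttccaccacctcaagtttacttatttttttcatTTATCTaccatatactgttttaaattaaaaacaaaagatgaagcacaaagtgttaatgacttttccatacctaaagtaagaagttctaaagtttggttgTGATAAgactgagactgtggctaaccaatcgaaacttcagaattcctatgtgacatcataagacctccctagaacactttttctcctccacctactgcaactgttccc
HRC: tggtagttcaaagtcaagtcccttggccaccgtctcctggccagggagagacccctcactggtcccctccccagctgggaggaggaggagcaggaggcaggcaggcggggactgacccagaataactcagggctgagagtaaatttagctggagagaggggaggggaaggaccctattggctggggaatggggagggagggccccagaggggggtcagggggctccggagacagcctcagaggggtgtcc
RYR2: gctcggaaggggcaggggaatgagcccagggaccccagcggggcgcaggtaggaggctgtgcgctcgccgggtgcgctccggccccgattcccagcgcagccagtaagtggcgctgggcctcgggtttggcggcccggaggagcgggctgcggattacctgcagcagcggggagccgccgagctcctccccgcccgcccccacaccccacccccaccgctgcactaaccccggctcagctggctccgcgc
SLC8A1: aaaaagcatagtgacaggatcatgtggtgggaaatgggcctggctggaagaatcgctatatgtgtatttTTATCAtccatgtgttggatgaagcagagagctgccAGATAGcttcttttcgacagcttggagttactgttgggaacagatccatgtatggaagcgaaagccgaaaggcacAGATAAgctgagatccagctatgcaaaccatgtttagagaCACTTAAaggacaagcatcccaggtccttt

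The PLN window held 2 GATA matches, at positions -207 and -108 counted from the start site, in sequence of 34.8% G and C. The first SLC8A1 window held 3 GATA matches, at -181, -145 and -70, and 1 NKX2-5 match at -30. The HRC and RYR2 windows (64% and 75.2% G and C) held neither. RefSeq promoters were matched for 9 of the 10 genes, with 12 start sites, and not for ASPH. GATA letters stood in 3 of those 12 windows (PLN, ATP2A2 and SLC8A1), against 22.3% of all 35116 windows of the same length, and NKX2-5 letters in 1 of 12, against 8.73%. The MEF2 consensus, which the first ATP2A2 window and the CASQ2 window held, occurred in 2.8% of all windows, and the TBX letters AGGTGT, found in that ATP2A2 window where they overlap its GATA match, in 9.57%. TATAAA stood in 1 of the 12 windows, a downstream SLC8A1 start, and in 10.7% of all, and the CArG consensus in 0 of 12 and 1.16% of all. A match describes letters in this window and is not a shown binding site.

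Levels are given as background-corrected, quantile-normalized log2 intensities, and detection of a probe required a detection p-value under 0.01. The lowest detected signals lay between 5.27 (IWP2) and 5.49 (LY294002), and levels of different probes do not rank transcripts against each other. PLN, ATP2A2, HRC, CACNA1C and ASPH were detected on all 5 arrays. RYR2 and SLC8A1 were detected on the 3 inhibitor arrays and on neither the control nor the insulin array, a pattern that 0.948% of all named genes had. CASQ2 and TRDN were each detected on 1 array, and S100A1 on none.

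**Figure D1:**
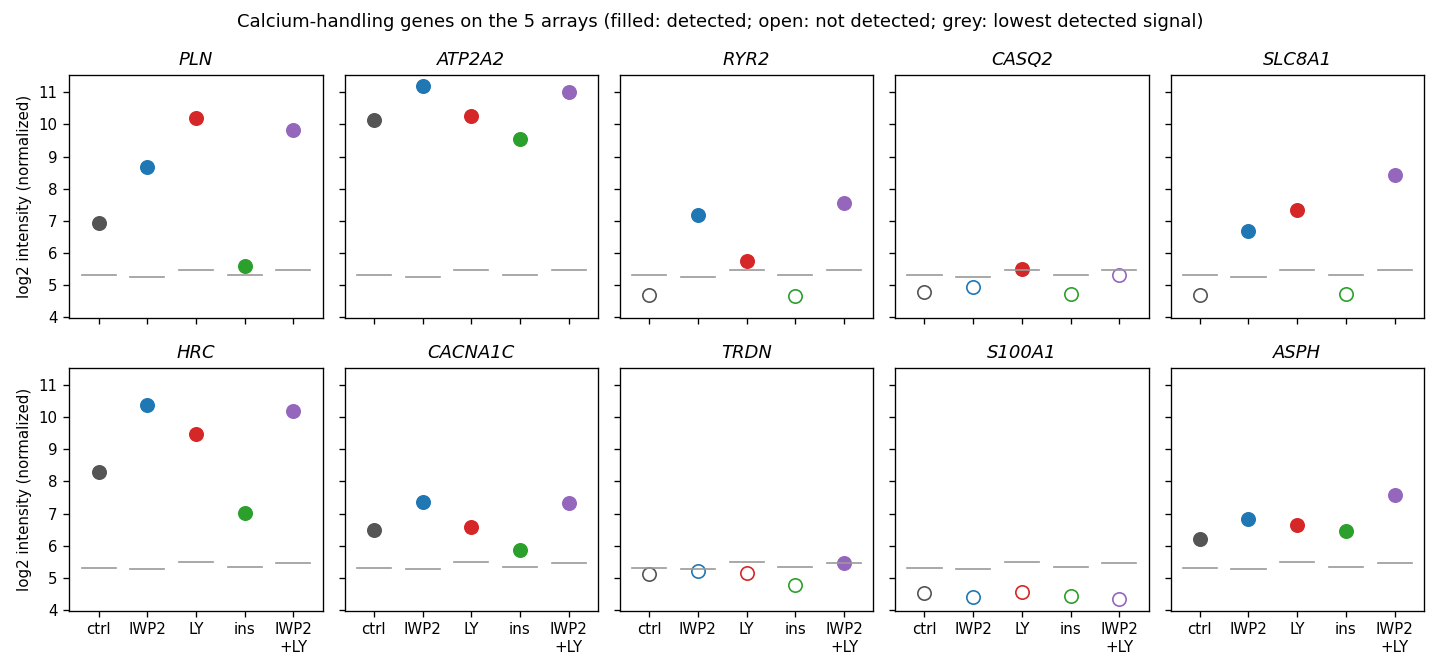
Normalized log2 intensity (y axis) of each of the 10 genes on the control, IWP2, LY294002 (LY), insulin (ins) and double-inhibitor arrays. Filled points were detected, open points were not, and grey lines are the lowest detected signal of each array. PLN runs from 5.603 with insulin to 10.19 with LY294002, while S100A1 stays below every grey line.

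The array cell content was checked against markers. The labels call the cells embryonic stem cells, but POU5F1 and NANOG, which define that state, were not detected on any array, and SOX2 was detected on the double-inhibitor array only (5.94). LIN28A was detected on all arrays, between 8.22 and 10.07, and DPPA4 on all but the double-inhibitor array, with 7.98 in the control. Of 15 cardiomyocyte markers, 11, 13, 11, 7 and 13 were detected on the control, IWP2, LY294002, insulin and double-inhibitor arrays, and their summed linear level was 18214, 68430, 57013, 11088 and 68707. MYL2, a ventricular marker, and TNNI1 were not detected on any array. The summed level of 15 liver and endoderm markers was 110809, 30970, 6769, 121942 and 1768 in that order, and that of 10 fibroblast and matrix markers 30122, 7784, 6879, 29448 and 1232. Of 9 skeletal muscle markers, 1 (ACTN3) was detected, on each inhibitor array. The summed level of 7 smooth muscle markers was 10119, 13606, 7672, 8318 and 9608, and MYH11 among them was not detected on any array. Of 5 neural markers, 1 (TUBB3) was detected, on all arrays. Of 7 endothelial markers, 5, 2, 2, 5 and 2 were detected. In RNA of a whole culture, fewer cells of a type and less RNA per cell cannot be told apart, and the part of cell makeup in the differences below was not tested.

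Among the release proteins, RYR2, the ryanodine receptor that forms the cardiac release channel, was read on the IWP2 array at 7.18, on the double-inhibitor array at 7.55 and on the LY294002 array at 5.74. Its values of 4.68 in the control and 4.67 with insulin were not above background. RYR2 was thus high with IWP2, with or without LY294002, and just above the detection limit with LY294002 alone. It was at least 3.62-fold higher than the control with IWP2, at least 4.70-fold higher with both inhibitors and at least 1.34-fold higher with LY294002. Without background correction the RYR2 log2 difference was 1.04 with IWP2, 0.34 with LY294002 and 1.28 with both, again smaller than the bounds.

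HRC, which binds calcium inside the sarcoplasmic reticulum, read 8.28 in the control, 10.39 with IWP2, 9.48 with LY294002, 7.02 with insulin and 10.19 with both inhibitors. Each inhibitor array lay above the control and the insulin array below it. The differences from the control were 2.11 (4.32-fold) with IWP2, 1.21 (2.31-fold) with LY294002, 1.91 (3.75-fold) with both and -1.26 (2.39-fold lower) with insulin. Without background correction the HRC difference with insulin was -0.85, within 2-fold. From the insulin to the IWP2 array the signal of HRC spanned 10.3-fold.

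ASPH encodes aspartyl hydroxylase and, from other splice forms, junctin, a partner of the release channel. Which of these forms each ASPH probe reads was not analysed, so the values below are not a reading of junctin alone. The ASPH probe with the highest mean signal read 6.22 in the control, 6.84 with IWP2, 6.65 with LY294002, 6.46 with insulin and 7.59 with both inhibitors. The one difference of this probe past 2-fold from the control was with both inhibitors (1.37, 2.58-fold), and insulin did not lie below the control. Without background correction that ASPH difference was 0.76, below 2-fold.

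CASQ2, the calsequestrin of heart muscle, was detected with LY294002 (5.50, detection p-value 0.00909) and lay just outside the limit with both inhibitors (5.32, detection p-value 0.013). It read 4.78 in the control, 4.93 with IWP2 and 4.74 with insulin, none of them above background. TRDN, which encodes triadin, was detected with both inhibitors (5.47, detection p-value 0.00779) and read 5.11 in the control, 5.21 with IWP2, 5.17 with LY294002 and 4.77 with insulin. These detected signals sat at the lowest level their arrays could call, so CASQ2 with LY294002 was at least 1.13-fold and TRDN with both inhibitors at least 1.11-fold higher than the control.

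For calcium uptake, PLN (phospholamban, which restrains the pump) read 6.93 in the control, 8.66 with IWP2, 10.19 with LY294002, 5.603 with insulin and 9.81 with both inhibitors. Its range was 24.1-fold, the widest of the 5 genes detected on all arrays, and its highest array was LY294002 where that of HRC was IWP2. PLN was higher than the control by 1.73 (3.33-fold) with IWP2, by 3.27 (9.62-fold) with LY294002 and by 2.89 (7.39-fold) with both, and differed by -1.33 (2.50-fold lower) with insulin. Without background correction the PLN difference was 2.56 with LY294002 and 2.21 with both, and as a mean over both probes it was 2.28 with both. The insulin value stood near the lowest detected signal of that array, 5.33. The PLN difference with insulin was -0.60 without background correction, -0.92 with a larger offset and -0.64 as a mean over both probes, each within 2-fold.

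ATP2A2, which encodes the pump SERCA2, read 10.13 in the control, 11.20 with IWP2, 10.25 with LY294002, 9.56 with insulin and 11.001 with both inhibitors. These values are from the ATP2A2 probe with the highest mean signal. On it the IWP2 and double-inhibitor arrays were the high ones, and LY294002 alone lay 0.12 above the control. With IWP2 the difference was 1.07 (2.10-fold), just inside the 2-fold limit, and with both inhibitors 0.87 (1.83-fold), just outside it. On the LY294002 array PLN therefore stood 9.62-fold and ATP2A2 1.09-fold above the control. With IWP2 they stood 3.33-fold and 2.10-fold above it. The LY294002 array was the dimmest of the 5, and before normalization the intensity of this ATP2A2 probe was 956.9 there and 1204 in the control. Another ATP2A2 probe, given below, lay 0.81 above the control with LY294002.

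At the sarcolemma, CACNA1C (the pore-forming subunit of the L-type calcium channel) read 6.498 in the control, 7.35 with IWP2, 6.58 with LY294002, 5.87 with insulin and 7.34 with both inhibitors. The order of the arrays was that of ATP2A2. No CACNA1C difference from the control passed 2-fold: they were 0.85, 0.08, -0.63 and 0.84 with IWP2, LY294002, insulin and both. The LY294002 value was -0.09 under 75th percentile scaling.

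SLC8A1, the sodium-calcium exchanger, read 6.67 with IWP2, 7.33 with LY294002 and 8.41 with both inhibitors. It read 4.70 in the control and 4.72 with insulin, both below detection. On this probe the combination was highest, and a second probe, given below, ordered the inhibitor arrays differently. SLC8A1 was at least 2.56-fold higher than the control with IWP2, at least 4.02-fold with LY294002 and at least 8.54-fold with both. These bounds hold on the background-corrected scale: without background correction the SLC8A1 log2 differences were 0.75, 1.12 and 1.896, all smaller than the bounds. With an offset of 50 they were 1.18, 1.69 and 2.64. S100A1, a calcium sensor that binds the release channel and the pump, lay between 4.33 and 4.55 on the 5 arrays, all below detection.

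**Figure D2:**
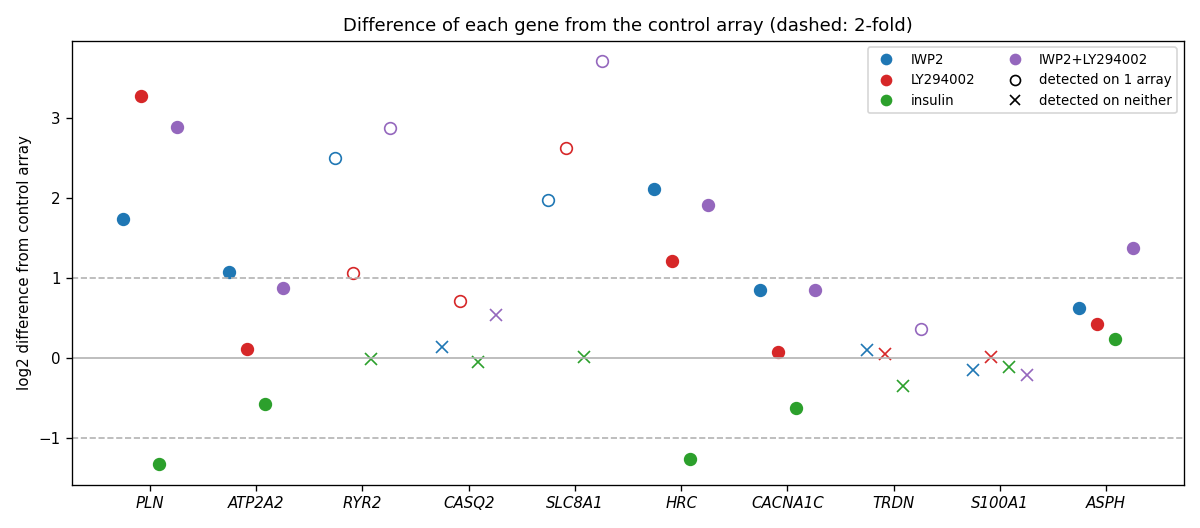
Log2 difference of each gene from the control array (y axis) for the 4 treated arrays. Filled points were detected on both arrays of the pair, open points on 1 (the measured difference, not the bound) and crosses on neither, and dashed lines mark 2-fold. PLN and HRC lie past 2-fold above 0 with each inhibitor treatment and past 2-fold below 0 with insulin, where both lie within 2-fold without background correction.

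Counted over the 10 genes, IWP2 left 3 of the 5 genes detected on both arrays at least 2-fold higher than the control (PLN, ATP2A2 and HRC) and 0 lower, against 6.94% of all 8414 genes that were higher and 7.70% that were lower. A further 2 genes, RYR2 and SLC8A1, were detected with IWP2 and not in the control, as were 9.07% of the 10749 genes not detected in the control. With LY294002 2 of 5 were higher (PLN and HRC) and 0 lower, against 9.02% and 10.2% of 7793 genes. Another 3, RYR2, CASQ2 and SLC8A1, were detected with LY294002 and not in the control, against 6.04% of genes. With both inhibitors 3 of 5 were higher (PLN, HRC and ASPH) and 0 lower, against 12% and 10.9% of 7858 genes, and 3 (RYR2, SLC8A1 and TRDN) were newly detected, against 7.21%. The genes were chosen with earlier results of these data known. These counts and those below therefore describe the genes and are not a test against the shares.

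The insulin array lay on the other side of the control. Of the 5 genes detected on both arrays, 2 (PLN and HRC) were at least 2-fold lower and 0 higher, against 1.88% of 8680 genes lower and 1.71% higher. That count of 2 was 0 without background correction, 1 with an offset of 50 and 1 as a mean over probes. ATP2A2 differed by -0.57 and CACNA1C by -0.63, within 2-fold, and ASPH by 0.24. The other 5 genes were detected on neither array of this pair.

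The median log2 difference over the genes detected on at least 1 array of a pair was 1.73 with IWP2 (7 genes), 0.89 with LY294002 (8 genes), -0.63 with insulin (5 genes) and 1.64 with both inhibitors (8 genes). Over all genes detected on at least 1 array of the same pairs it was 0.01, -0.07, -0.003 and -0.02. A gene that entered through the treated array alone had to be higher there, so these medians describe the genes and are not support for a direction. Over all 10 genes, detected or not, the medians were 0.96, 0.57, -0.23 and 1.12. All 4 comparisons used the same control array.

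**Figure D3:**
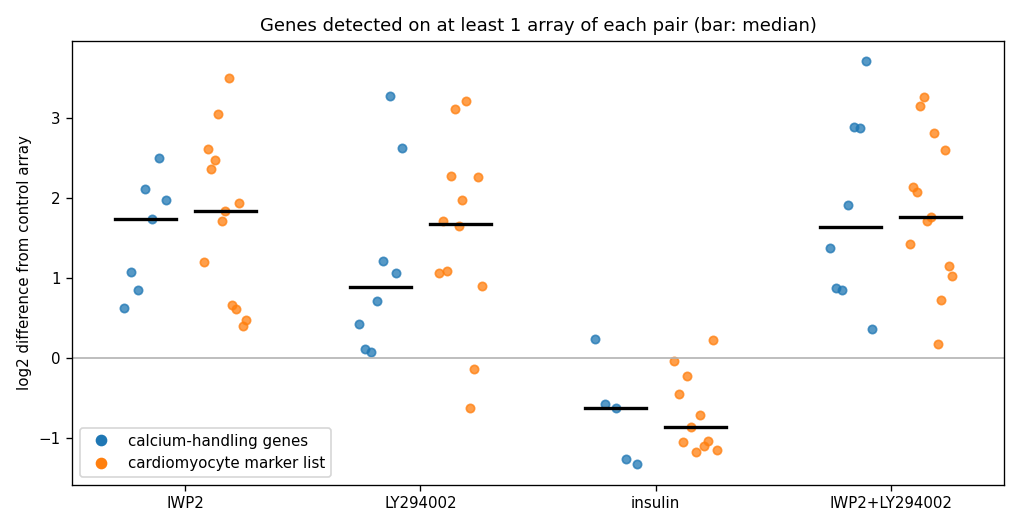
Log2 difference from the control array (y axis) of the calcium-handling genes (blue) and the cardiomyocyte marker list (orange), for genes detected on at least 1 array of each pair. Bars are medians, and with LY294002 they stand at 0.89 for the calcium-handling genes and 1.68 for the markers.

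The cardiomyocyte marker list, mostly sarcomere genes, had medians of 1.83 with IWP2 (13 genes), 1.68 with LY294002 (12 genes), -0.85 with insulin (11 genes) and 1.76 with both inhibitors (13 genes). The calcium-handling median with LY294002, 0.89, lies between CASQ2 and RYR2, both not detected in the control, and over the 5 genes detected on both arrays it was 0.43. With LY294002 the calcium-handling genes ran from CACNA1C at 0.08 and ATP2A2 at 0.12 to PLN at 3.27, while NKX2-5, a cardiac transcription factor, stood at 3.21. NPPA (atrial natriuretic peptide) was not detected with LY294002 and was at least 1.38-fold lower there. The difference between the lists was not tested.

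The inhibitor arrays also differed among themselves. LY294002 against IWP2 gave PLN 1.53 higher (2.89-fold) and RYR2 at -1.44 (2.71-fold lower), 1 gene past 2-fold each way of 7 detected on both, against 4.12% of genes higher and 5.59% lower. ATP2A2 (-0.95), HRC (-0.91) and CACNA1C (-0.77) also read lower with LY294002 than with IWP2, short of 2-fold, and SLC8A1 read higher by 0.65. PLN was thus brighter with LY294002, and the release channel, the pump, HRC and the L-type channel with IWP2. For SLC8A1 the second probe went the other way, at 6.40 with IWP2 and not detected with LY294002.

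Adding LY294002 to IWP2 left PLN 1.15 higher (2.22-fold) and SLC8A1 1.74 higher (3.34-fold), 2 of 7 genes, against 2.96% of all genes. The second SLC8A1 probe did not show this, reading 6.40 with IWP2 and 6.26 with both. ATP2A2, HRC and CACNA1C differed by -0.20, -0.20 and -0.01 between those arrays. Adding IWP2 to LY294002 left RYR2 1.81 higher (3.51-fold) and SLC8A1 1.09 higher (2.12-fold), again 2 of 7, against 5.92% of genes. ATP2A2, HRC, CACNA1C and ASPH were higher by 0.75, 0.70, 0.77 and 0.94, short of 2-fold. The ATP2A2 probe ILMN_1655884, given below, hardly differed there, reading 9.13 with LY294002 and 9.18 with both, and it read 9.65 with IWP2.

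The insulin array was compared with each inhibitor array. At least 2-fold lower with insulin were 4 of 5 genes against IWP2 (PLN, ATP2A2, HRC and CACNA1C), where 9.48% of genes were, and 2 of 5 against LY294002 (PLN and HRC), where 11.9% were. Against both inhibitors all 5 were lower, where 15.3% of genes were. The widest of these gaps was PLN at -4.59 (24.1-fold) between insulin and LY294002.

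**Figure D4:**
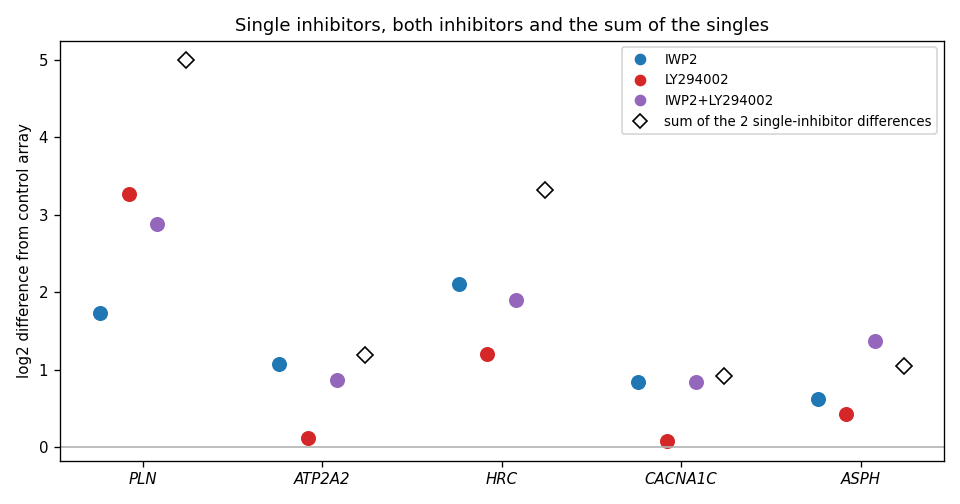
Log2 difference from the control array (y axis) of the 5 genes detected on all arrays, with IWP2, LY294002 and both inhibitors, and the sum of the 2 single-inhibitor differences (diamonds). For PLN and HRC the point for both inhibitors lies below the diamond, at 2.89 against 5.00 and 1.91 against 3.32.

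If the 2 inhibitors acted additively on the log2 scale, the difference with both would equal the sum of the single ones. For PLN the sum was 5.00 and the measured difference 2.89, a gap of -2.11. For HRC the sum was 3.32 and the measured difference 1.91, a gap of -1.41. Both gaps lay below the 5th percentile of the 7271 genes detected on these 4 arrays (-1.29), whose median was -0.03. ATP2A2 and CACNA1C had gaps of -0.32 and -0.08, and ASPH of 0.32, all between that value and the matching upper percentile, 1.201. The HRC gap was -1.19 under 75th percentile scaling and -1.195 without background correction, inside the main value of that percentile, which was not recomputed there. The CACNA1C gap was 0.14 under 75th percentile scaling, and the ASPH gap -0.23 as a mean over probes. The ATP2A2 gap of -0.32 holds for the probe used. On ILMN_1655884, another ATP2A2 probe given below, the differences were 1.33 with IWP2, 0.81 with LY294002 and 0.86 with both inhibitors. There the value with both lay below that with IWP2 alone, a clear shortfall from the sum. A shortfall was not particular to PLN and HRC. Of the listed cardiomyocyte markers detected on the control and inhibitor arrays, all but RBM20 also lay below their sum. NKX2-5 differed from the control by 3.50 with IWP2, 3.21 with LY294002 and 2.81 with both, and MYL3 by 3.04, 3.11 and 3.25. For RBM20 the differences were 0.61, -0.13 and 0.72.

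**Figure D5:**
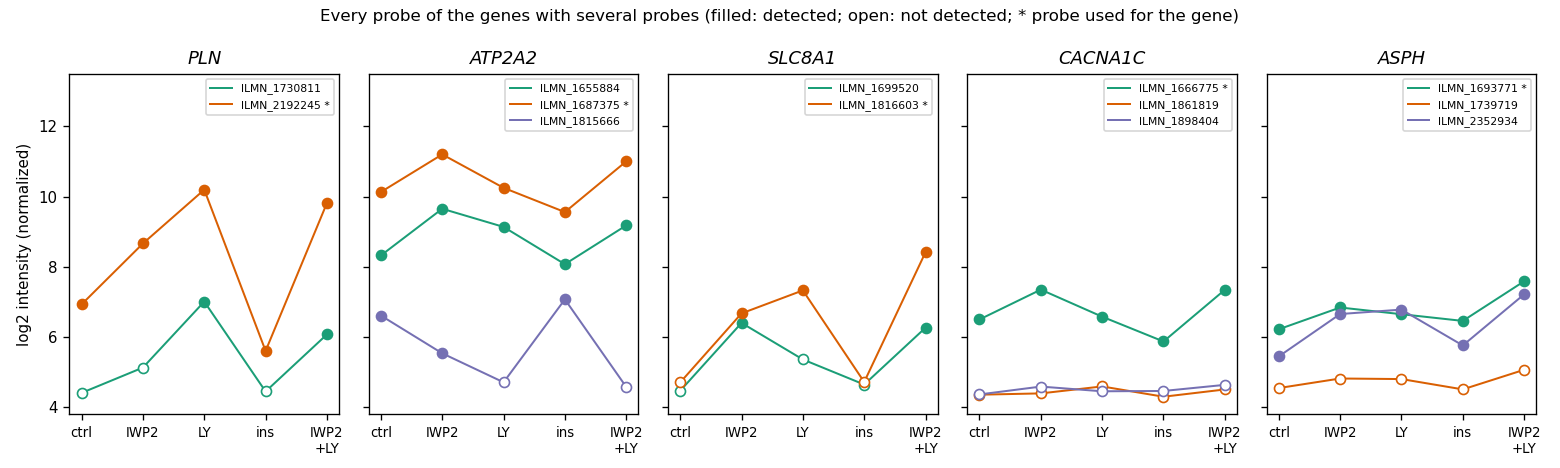
Normalized log2 intensity (y axis) of every probe of the 5 genes with several probes, over the 5 arrays. Filled points were detected, open points were not, and a star in the legend marks the probe used for the gene. Of the 3 ATP2A2 probes, ILMN_1815666 runs the other way, from 6.61 in the control and 7.07 with insulin to 5.53 with IWP2.

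The 5 genes with more than 1 probe allowed a check within an array. The second PLN probe, ILMN_1730811, was detected with LY294002 (7.01) and with both inhibitors (6.07), where it was at least 3.22-fold and 1.69-fold higher than the control, and it was not detected on the other arrays. The second SLC8A1 probe, ILMN_1699520, was detected with IWP2 (6.40) and with both inhibitors (6.26), and its value of 5.36 with LY294002 was not above background (detection p-value 0.0208). Both probes of these genes thus placed the double-inhibitor array above the control, and the SLC8A1 probes disagreed on LY294002 and on whether IWP2 or the combination was higher. The second detected ASPH probe, ILMN_2352934, was higher than the control by 1.21 with IWP2, 1.33 with LY294002 and 1.77 with both, each past 2-fold, where the probe used had 0.62, 0.43 and 1.37. The third ASPH probe and 2 of 3 CACNA1C probes were not detected on any array.

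The 3 ATP2A2 probes disagreed in direction. The gene makes SERCA2a, the form of heart and slow skeletal muscle, and SERCA2b, the form of most other tissues, by splicing of its 3′ end. ILMN_1687375, used above, is annotated to the transcript record of SERCA2a. ILMN_1655884 and ILMN_1815666 are both annotated to that of SERCA2b, and where each probe lies in the gene was not analysed here.

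ILMN_1655884 read 8.32 in the control, 9.65 with IWP2, 9.13 with LY294002, 8.07 with insulin and 9.18 with both inhibitors. It went the same way as the probe used, but its difference with LY294002 was larger, 0.81 against 0.12. ILMN_1815666 read 6.61 in the control, 5.53 with IWP2 and 7.07 with insulin, and was not detected with LY294002 (4.71) or with both inhibitors (4.58). It was low on the inhibitor arrays and highest with insulin. It differed from the control by -1.07 with IWP2 and 0.46 with insulin and was at least 2.18-fold lower with LY294002 and at least 2.22-fold lower with both. Several marker lists were also lower on the inhibitor arrays. Liver and endoderm medians were -2.10 with IWP2, -4.41 with LY294002, 0.05 with insulin and -6.35 with both. Fibroblast and matrix medians were -2.03, -2.10, -0.21 and -4.40 in that order, and endothelial medians -1.02, -1.36, 0.47 and -1.27. The pluripotency and neural lists, with few detected genes, were lower there too, and the cardiomyocyte list was higher. The part of any of these cell types in the signal of ILMN_1815666 was not tested. As a mean over the 3 probes, ATP2A2 differed from the control by 0.44 with IWP2, -0.32 with LY294002 and -0.10 with both inhibitors.

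For each of the 5 genes detected on all arrays, the genes with the most similar profile were found by the root mean square gap between their 4 log2 differences from the control, among 7022 other genes detected on all arrays, leaving out placeholder and Y-linked symbols and symbols with no match in the RefSeq gene table. The nearest to PLN were SMPX (0.29), VCAM1 (0.49) and TNNC1 (0.54), and to HRC MYH6 (0.19), SLC25A4 (0.27) and CSHL1 (0.31). MYH6 (atrial myosin heavy chain), TNNC1 (cardiac troponin C) and SMPX (a small muscle protein) are muscle genes. The nearest to ATP2A2 were BTAF1 (0.11), DLAT (0.12) and COPB2 (0.13), to CACNA1C PTPN12 (0.04), RO60 (0.08) and UHMK1 (0.09), and to ASPH SLC1A3 (0.09), B3GALNT1 (0.09) and TDG (0.12). All profiles share the control array and rest on 4 differences.

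Other genes of the calcium pathway were read from lists. In the list of further release and store proteins, 11 of 23 genes were detected on both arrays of each pair with the control. With IWP2 1 was higher past 2-fold and 0 lower (6.94% and 7.70% of all genes). With LY294002 4 were higher and 0 lower (9.02% and 10.2%). With insulin they were 1 and 0 (1.71% and 1.88%), and with both inhibitors 3 and 1 (12% and 10.9%). List medians here and below were taken over the genes detected on at least 1 array of a pair. They were 0.47, 0.50, 0.10 and 0.37 (16, 15, 14 and 15 genes). As for the members, such medians are not support for a direction. SRL, which encodes sarcalumenin, a calcium-binding protein of the store, had a pattern near that of SLC8A1. It was not detected in the control (4.84) or with insulin (4.95) and read 7.31 with IWP2, 7.48 with LY294002 and 7.90 with both, at least 3.99-fold, 4.46-fold and 5.995-fold higher than the control. TMEM38B, a cation channel of the store, was higher by 1.16, 1.13 and 1.45 on the inhibitor arrays, and SRI (sorcin, which binds the release channel) by 0.97, 1.36 and 1.39. JPH1, a junctophilin that joins store and surface membranes, was higher by 1.34 with both. FKBP1B, which binds the release channel, was higher by 1.18 with LY294002 and by 0.49 with insulin. ITPR3, an inositol trisphosphate receptor, was at least 3.04-fold lower with LY294002 and at least 3.10-fold lower with both.

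Of 21 uptake genes and regulators on the platform, 10 were detected on both arrays of the IWP2 and insulin pairs and 9 of the LY294002 and double-inhibitor pairs. Of these, 2 were higher and 1 lower with IWP2 (6.94% and 7.70% of all genes) and with LY294002 (9.02% and 10.2%). With insulin they were 0 and 0, and with both 2 and 0 (12% and 10.9%). Over the genes detected on at least 1 array of a pair (12, 13, 10 and 12), medians were 0.34, 0.33, 0.03 and 0.56. SLN (sarcolipin), the second small inhibitor of the pump, differed from the control in the opposite direction to PLN on the inhibitor arrays: it read 11.90 in the control, 9.29 with IWP2, 9.56 with LY294002 and 11.47 with insulin and was not detected with both inhibitors (4.87). With insulin both read below the control. PPP1R1A, a phosphatase inhibitor, was higher by 1.40 with IWP2 and 1.56 with LY294002, and CAMK2A, a calmodulin kinase, by 1.19 with IWP2 and 1.11 with both. AKAP7, an anchor of protein kinase A, was higher by 1.19 with both, and CAMK2D, the main calmodulin kinase of heart, was at least 1.69-fold lower with LY294002.

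Of 34 sarcolemmal channels, pumps and store-operated channels, 8, 7, 8 and 6 were detected on both arrays of the IWP2, LY294002, insulin and double-inhibitor pairs. Of these, 1 was higher and 2 lower with IWP2 and with LY294002, 0 and 0 with insulin, and 1 and 1 with both. These counts are to be read against the same shares of all genes. Over the genes detected on at least 1 array of a pair (15, 13, 11 and 13), medians were 0.38, -0.25, 0.34 and -0.06. Subunits of the L-type channel differed: CACNB2, its main cardiac beta subunit, was not detected in the control or with insulin and was at least 4.02-fold, 2.20-fold and 3.64-fold higher with IWP2, LY294002 and both. CACNB3, another beta subunit, differed by -1.38, -1.72 and -1.86. TRPC1, a cation channel, was higher by 2.21, 1.41 and 2.74, and STIM1, the calcium sensor of store-operated entry, differed by -1.005 with IWP2 and -1.201 with LY294002 and was at least 2.44-fold lower with both. ORAI1, its channel partner, was not detected in the control and was at least 2.57-fold higher with LY294002 and 1.60-fold higher with insulin. With IWP2 and with both inhibitors the ORAI1 bounds were 1.09-fold and 1.27-fold. RRAD, which restrains the L-type channel, differed by 0.60 with IWP2 and 0.82 with LY294002 and was not detected with insulin or with both inhibitors.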

How the data were processed

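Gene expression was measured on 5 Illumina arrays, 1 per treatment, and each array was taken to its group by its treatment label. The deposited table of scanner values lists 47299 probes, each with an unnormalized intensity and, per the file headers, a detection p-value. No background had been subtracted by the authors, since the dimmest probe of an array still read 81.3 to 85.9. A second deposited table holds log2 values whose columns share nearly 1 distribution (medians from 5.013 to 5.017). Each of its columns ranked probes as the intensities did, so it was not gene-centred, and its background step was not given in the sources used here.

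The intensities were background-corrected with normexp from the detection p-values, quantile-normalized and moved to log2 with an offset of 16 (neqc, limma 3.58.1, R 4.3.3), and checked on simulated arrays. Later steps used Python 3.11.15. Between 13173 and 14723 probes were detected per array at a detection p-value under 0.01. Of the probes, 30106 had 1 gene symbol, 8 several and 17185 none in the platform annotation. Each gene was read from its probe with the highest mean. A difference was counted at 2-fold with detection on both arrays. A gene detected on 1 array got a lower bound, written "at least": its detected value over whichever was larger on the other array, the dimmest detected probe or the gene itself. The number of arrays limits the precision.

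Genes named were the 10 members, up to 4 largest differences and 2 largest bounds per calcium list, and the 3 nearest profiles. The members and lists were chosen with earlier results of these data known. Alternatives changed background correction, scaling, source table, offset, detection limit and probe choice, and 1 added after seeing the data left out the LY294002 array.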

Additional observations from a re-analysis of the deposited data

Results flagged for a closer look

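2 results stood out because the same inhibitor went with opposite directions in the 2 backgrounds it was added to. PLN was higher by 1.73 when IWP2 was added to control medium and differed by -0.38 when IWP2 was added to LY294002. HRC was higher by 1.21 when LY294002 was added to control medium and differed by -0.20 when LY294002 was added to IWP2. In both pairs the smaller difference lay within 2-fold, each rests on 1 array per condition, and the difference between the backgrounds was not tested. Such a turn was not particular to these genes, and some cardiomyocyte markers had it while others did not. NKX2-5 read 6.37 in the control, 9.87 with IWP2, 9.58 with LY294002 and 9.18 with both, a turn for either inhibitor. MYL3 read 8.97, 12.01, 12.08 and 12.22, with no turn.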

How the results depend on the processing

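No paired analysis was possible because each group has 1 array. Of the 10 member differences counted past 2-fold from the control, 6 kept that count under every alternative run. The other 4 did not: ASPH with both inhibitors, ATP2A2 with IWP2, and PLN and HRC with insulin (HRC -0.85 without background correction). Of 317 single values under alternatives, 5 changed sign, all of them within 2-fold. The 317 include repeats of the main value. Changing or dropping the detection limit, or taking the probe with the highest single value, left each single value as it was. The median log2 difference of the members without background correction was 1.02 with IWP2, 0.28 with LY294002 and 1.05 with both inhibitors, and without a detection filter 0.96 with IWP2. Members past 2-fold numbered 5 with IWP2, 4 with LY294002 and 5 with both inhibitors without a detection filter. With insulin they numbered 0 without background correction, 1 with an offset of 50 and 1 as a mean over probes. Leaving the LY294002 array out of the normalization, chosen after seeing the data, changed none of these counts by over 1.5 times. RYR2, SLC8A1, CASQ2, TRDN and S100A1 were not above background in the control, which limits their differences. The causes were not tested.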

Other observations

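S100 proteins are small calcium-binding proteins, and 18 besides S100A1 were on the platform. Of 7 detected on both arrays of a pair, IWP2 left 4 past 2-fold below the control and LY294002 left 3. With both inhibitors 4 of 6 were lower, with 0 higher in each of these pairs. Over the 8 genes detected on at least 1 array of each pair, medians were -0.97, -1.08 and -1.86. Of all genes 7.70%, 10.2% and 10.9% were lower in those pairs. S100A16 read 9.34 in the control and 9.51 with insulin, and differed from the control by -2.91, -2.77 and -2.84 on the IWP2, LY294002 and double-inhibitor arrays. S100A11 differed by -1.28, -1.85 and -3.78, S100A10 by -0.50, -0.91 and -2.65 and S100A6 by -1.08, -0.40 and -1.64. S100A14, an epithelial member, was higher by 1.61 with insulin and at least 2.97-fold lower with both inhibitors, and S100A9 was detected only in the control (5.74).

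Of 10 genes of mitochondrial calcium transport on the platform, 6 were detected on both arrays of each pair with the control. Of these, 0 were higher and 1 lower with IWP2 (6.94% and 7.70% of all genes). They were 0 and 0 with LY294002 (9.02% and 10.2%) and with insulin (1.71% and 1.88%). With both inhibitors 2 were higher and 1 lower (12% and 10.9%). Over the genes detected on at least 1 array of a pair (8, 7, 6 and 7), medians were 0.21, -0.17, 0.01 and 0.04. MCUB, a restraining subunit of the uniporter, differed by -1.10 with IWP2, -0.17 with LY294002 and -1.53 with both. MCU, the pore of the uniporter, differed by -0.34, -0.705 and -0.52 on the same arrays. VDAC3, an outer membrane channel, was higher by 1.25 and MICU2, a gatekeeper of the uniporter, by 1.202 with both. SMDT1, another uniporter subunit, was at least 1.65-fold higher with both, and SLC8B1, the mitochondrial exchanger, was detected only with IWP2 (5.65).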
